A study of Mus musculus with 3 samples.

Results

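The genes described here, 10 of the 18193 with a probe set of their own, are regulators and markers of the epiblast and of early neural cells: Otx2, Pou3f1, Foxd3, Zic2 and Fgf5, which are best known from the epiblast, and Sox1, Pax6, Nes, Sox11 and Neurod1, which are best known from neural cells. They were followed on every probe set, a group of short probes for the same transcript, that the array annotation gives to a single one of these genes. That gave 25 probe sets of the 45037 on the arrays, and 0 probe sets name a member together with another gene. RNA came from mouse embryonic stem (ES) cells with a conditional knockout (KO) of Pou5f1, the gene of the transcription factor Oct3/4, at day 0, day 1 and day 2, with 1 array per day. All groups carry the conditional allele, including day 0. How the knockout was started, how many clones or cultures were used and the genetic background are not given in the sources used here, and no culture without the knockout was analysed here at day 1 or day 2, so loss of Oct3/4 and time in culture cannot be told apart.

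The epiblast is the tissue of the early embryo from which the whole body arises, and ES cells are its counterpart in culture. As the naive epiblast matures, it gains Otx2, Pou3f1 (Oct6) and Fgf5, while Foxd3 and Zic2 act in ES cells and the epiblast and later in neural crest and neural tissue. Neural induction then brings the transcription factors Sox1 and Pax6 and the intermediate filament nestin (Nes), followed by Sox11 and Neurod1 as neurons form. Oct3/4 is needed for pluripotency, and ES cells that lose it are known to turn towards trophectoderm, the lineage of the placenta.

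The values are array signals on a linear scale. Differences were taken as log2(signal + 55.9), where 55.9 is the 40th percentile of all signals and serves as the mark of dim signal. Probe sets whose mean over the 3 arrays reached that constant were kept, and a gene is represented by its brightest kept probe set. Of the 25 probe sets 13 were kept, and they measure 7 of the 10 genes, where 12717 of all 18193 genes with a probe set were measured. Fgf5, Zic2 and Sox1 had no kept probe set and are given by their signals alone. There were no replicates, so no test was possible and no p-value is given. The error available is the spread between kept probe sets of the same gene, with an SD in log2 of 0.34 for the full course from day 0 to day 2, and of 0.30 for the step from day 0 to day 1 and likewise for that from day 1 to day 2. For probe sets between 1 and 4 times the constant it was larger, at 0.43 over the full course, 0.39 in the step to day 1 and 0.40 in the step to day 2. It covers probe error, not the variation between cultures or hybridisations. In cell populations such as these, fewer expressing cells and less RNA per cell cannot be told apart.

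Across the series, the arrays had median signals between 83.5 and 92.5, and the 3 comparisons share arrays with each other. Pou5f1 went from a signal of 2400 to 40.8 and then 15.5, which goes with the day labels. All 8 ES cell markers examined lay above the constant at day 0, and 8 of 8 were at least 2-fold lower at day 2 (5.65% of all measured genes), with a summed signal of 102157, 70379 and 24676 in the order of the days. Pou5f1, the knocked-out gene, is 1 of these 8, so its fall is not a separate marker result. Of 7 measured trophectoderm markers 6 were at least 2-fold higher at day 2 (5.25% of all measured genes), and the summed signal of the 8 with a probe set went from 10403 to 15563 and 52605. The keratin genes Krt8 (2474, 3475 and 18358) and Krt18 (4026, 4938 and 24610) made up most of that sum on each day. Cdx2 had signals of 152, 856 and 828 and Gata3 of 54.7, 206 and 594. Gata3 was just below the constant at day 0 and was kept through the later days. The marker lists were chosen with earlier results of these data known. Their counts are therefore a description and not set against the shares over all measured genes. Eomes, the measured marker not past 2-fold, had 381, 844 and 295. The summed signal of 7 primitive endoderm markers was 604, 1207 and 1390, with Gata6 at 131, 457 and 458, Dab2 at 204, 498 and 600 and Sox17 at 86.2, 69.7 and 61.9. That of 8 fibroblast markers was 703, 655 and 478, of which Thy1, also found on other cells, made up 400, 275 and 89.3. The defining collagen genes Col1a1 and Col3a1 were at 26.3 and 13.9 by day 2, while Col1a2 (96.8, 102 and 127), Pdgfrb (60.8, 144 and 123) and Lum (3.90, 50.7 and 52.1) were higher at day 2 than at day 0. These marker levels move with the days, as the results below do, and their part in those results was not tested.

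**Figure D1:**
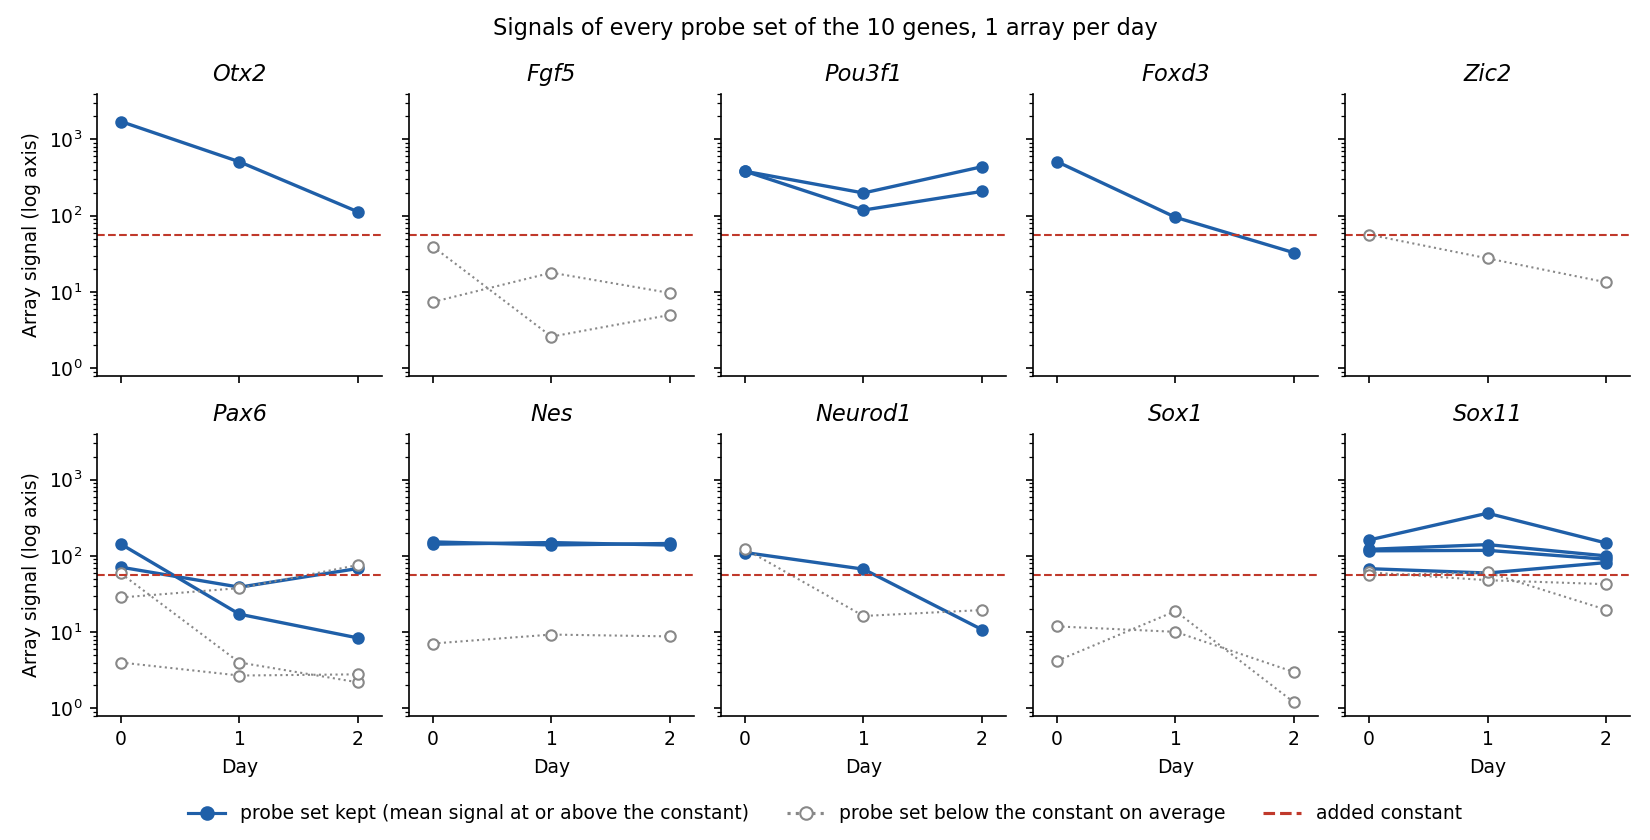
Array signal (log axis) against day for every probe set of the 10 genes, 1 point per array, with the added constant of 55.9 as a dashed line; filled points and solid lines mark the 13 kept probe sets and open points with dotted lines the others. Otx2 and Foxd3 are lower on each successive day, both Pou3f1 probe sets are lowest at day 1, the kept Nes probe sets stay level, and Fgf5 and Sox1 lie under the constant on every day.

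The 10 genes did not move as a block, and the large differences lay in Otx2 and Foxd3. At day 2, 3 of the 7 measured genes (Otx2, Foxd3 and Neurod1) were at least 2-fold lower than at day 0, where 5.65% of the 12717 measured genes were, and 0 were at least 2-fold higher, where 5.25% of measured genes were. Neurod1 reached the filter only through days 0 and 1, and with a constant of 112 its call was lost and the count was 2, so the number is a description of these genes and not set against that share. The other 4, Pou3f1, Pax6, Nes and Sox11, lay between -0.10 and 0.17 on their brightest probe sets. The median of the 7 was -0.10 and that of all measured genes 0.05. The former depends on the choices made, and was -0.42 without a filter, -0.83 with means over probe sets and -1.39 for the 4 members left by a filter at the 60th percentile. With equal medians of ribosomal protein genes, the median of all measured genes became -0.11 and the split over all genes changed from 718 lower and 668 higher to 910 lower and 490 higher, with Otx2, Foxd3 and Neurod1 still the members past 2-fold. At day 1, 2 of the 7, Otx2 and Foxd3, were at least 2-fold lower (2.59% of measured genes) and 0 were higher (2.40%). From day 1 to day 2, Otx2 and Sox11 were at least 2-fold lower (2.65%) and 0 were higher (2.09%). Of the 10 members, 8 had a probe set at or above the constant at day 0, 6 at day 1 and 5 at day 2. Zic2 is in the day 0 count with a signal of 56.5, just over the constant. The same counts were not made over all genes, so these are a description and not read as a trend.

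Otx2, a homeodomain transcription factor of the epiblast and the anterior brain, gave the widest change. Its single probe set, 1425926_a_at, read 1717 on the day 0 array, 509 on that of day 1 and 112 on that of day 2. The signal was lower on each successive day and by day 2 was 6.54% of its day 0 value, still above the constant. The difference was -1.65 in the step from day 0 to day 1 (3.14-fold) and -1.75 in the step from day 1 to day 2 (3.36-fold). On this scale the steps differed by less than the probe set spread of 0.30. The constant narrows the second step more. Without it the day 1 signal was 29.6% of that of day 0, and the day 2 signal 22.1% of that of day 1. Whether the steps differ was not tested. Together the steps make -3.40, or 10.5-fold, at day 2, far beyond the spread of 0.34. Only 25 of the 12717 measured genes were lower at day 2. Otx2 was 1 of 53 genes at least 2-fold lower in each of the steps. The share of probe sets dimmer than Otx2 on the same array went from 90.1% to 76.9% and then 55.1%. No other probe set on these arrays measures Otx2 alone.

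Foxd3, a forkhead repressor needed by ES cells and the epiblast and later by neural crest, was already well below its day 0 signal at day 1 and lower again at day 2. Its single probe set, 1422210_at, read 512 on the day 0 array, then 95.3 and then 32.7. Day 0 stands above the other days, and the day 2 signal lies below the constant. The difference at day 1 was -1.91 (3.75-fold), with 63 measured genes lower. On this scale it differed from the -1.65 of Otx2 by less than the probe set spread. That closeness depends on the constant. Without it the day 1 signal was 18.6% of that of day 0 for Foxd3, against 29.6% for Otx2. From day 1 to day 2 the difference of Foxd3 was -0.77 (1.71-fold), within 2-fold, where Otx2 had -1.75. The constant narrows this step, since the day 2 signal without it was 34.3% of that of day 1, against 22.1% for Otx2. At day 2 against day 0 the difference was -2.68 (6.40-fold), or -2.11 with a constant of 112. Whether the course of Foxd3 differs from that of Otx2 was not tested.

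Promoter sequence is shown for Otx2 and Foxd3 because they changed most. The sequences come from RefSeq, build GRCm38.p6, which holds windows of 250 bases before to 50 after a transcript start for 8 of the 10 members. They are printed 5′ to 3′ on the strand of the gene, and here cover the 250 bases before the outermost start of each gene. For Otx2 this is chr14:48667645-48667894 on the minus strand, and for Foxd3 chr4:99656049-99656298 on the plus strand. Neither holds any of the motifs searched, so no letters are in capitals.
Otx2: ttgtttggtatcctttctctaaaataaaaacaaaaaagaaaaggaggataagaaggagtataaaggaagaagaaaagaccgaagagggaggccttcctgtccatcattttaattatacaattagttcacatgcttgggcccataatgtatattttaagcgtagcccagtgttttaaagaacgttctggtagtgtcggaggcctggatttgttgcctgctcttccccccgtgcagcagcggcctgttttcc
Foxd3: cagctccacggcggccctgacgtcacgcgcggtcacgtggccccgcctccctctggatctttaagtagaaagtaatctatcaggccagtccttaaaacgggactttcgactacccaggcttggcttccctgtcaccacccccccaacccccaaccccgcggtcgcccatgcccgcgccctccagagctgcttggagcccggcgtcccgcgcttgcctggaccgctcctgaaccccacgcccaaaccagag
In the whole windows of 300 bases at these outermost starts, G and C make up 41.7% for Otx2, with 6 CpG dinucleotides, and 65.7% for Foxd3, with 25. The other 3 windows of Otx2 are at 47.7%, 51.0% and 53.7%, with 8, 16 and 11 CpG dinucleotides. Over all 32851 windows the medians were 52.7% and 7 CpG dinucleotides.

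The motifs searched, on both strands of each window, were the octamer ATGCAAAT that POU factors bind, the SOX cores ACAAAG and ACAATG, the bicoid-class homeobox motif TAATCC that OTX factors bind, and the E-box CAGATG of the NeuroD class. Among all windows 1.74% hold the octamer, 18.7% ACAAAG, 12.6% ACAATG, 7.06% TAATCC and 17.2% CAGATG. In the 12 windows of the 8 members there were 5 matches, and they are shown in 30 bases each where they fall in Otx2 or Sox1, with the match in capitals. The Otx2 matches, both read on the opposite strand, lie before its inner starts. TAATCC is 211 bases before a start, within chr14:48665302-48665331, and CAGATG is 59 bases before another, within chr14:48662775-48662804, both on the minus strand. The octamer of Sox1 begins at base 19 of the transcript, within chr8:12395526-12395555 on the plus strand.
Otx2, TAATCC match: gtgtgcccctcGGATTAtctcgttagttta
Otx2, CAGATG match: ggtgggggacgCATCTGcaactcctttaaa
Sox1, octamer: gccagcgcgccATGCAAATcaccgccgccg
The other matches were ACAAAG in a window of Fgf5 and in a window of Pax6. A match is a run of letters and not a measured binding site, and these arrays do not measure binding. Sox1, the member with the octamer, was below the constant on all 3 arrays, and neither Otx2 nor Foxd3 has an octamer in its windows.

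Pou3f1, a POU factor of the maturing epiblast and of neural and glial cells, was lowest at day 1. Probe set 1460038_at read 383, 199 and 439 on the arrays of day 0, day 1 and day 2. The other, 1422068_at, had 383, 119 and 208. Both place day 1 below the other days, and all 6 signals are above the constant. At day 1 the differences from day 0 were -0.79 (1.72-fold) and -1.33 (2.52-fold), so only the second probe set passed 2-fold. From day 1 to day 2 the differences were 0.96 and 0.60, both within 2-fold. At day 2 the probe sets differ in sign against day 0, at 0.17 and -0.73, and whether Pou3f1 was back at its starting level cannot be read from them. Both steps rest on the same day 1 array. The mean over both probe sets at day 1 was -1.06, past 2-fold, and over all probe sets 2.35% of those kept were at least 2-fold lower at day 1.

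Zic2, a zinc finger factor of the epiblast and the neural plate, and Fgf5, the secreted growth factor that serves as the classic marker of the later epiblast, had no kept probe set. The probe set of Zic2, 1421301_at, had signals of 56.5, 27.6 and 13.4. Day 0 stands just over the constant and the other days under it, so the order may not be resolved. The probe sets of Fgf5 had signals of 39.3, 2.60 and 5.00 and of 7.4, 17.9 and 9.70. All 6 are below the constant, and the probe sets disagree on the order of the days. At no day was an Fgf5 signal above the constant detected on these arrays.

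Sox1, the SoxB1 factor that marks the earliest neural cells, was not detectable above the constant on any day. Its probe sets had signals of 11.9, 10.1 and 3.0 and of 4.20, 18.9 and 1.20. At most 19.4% of the probe sets on an array were dimmer than either of them, so a change in Sox1 could not be read.

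Pax6, the paired-box factor of the eye and the neural tube, gave values that depend on the probe set. Its brightest probe set, 1437816_at, had signals of 71.1, 38.9 and 68.4. The next, 1419271_at, had signals of 143, 17.2 and 8.40. The former is near its starting value at day 2 and the latter is not, and the differences at day 2 were -0.03 and -1.63. The latter was kept only narrowly, with a mean of 56.1, through its day 0 signal, so it had to be lower on other days. Of the 3 probe sets that were not kept, 1456342_at had 28.5, 37.8 and 75.9, 1452526_a_at had 58.8, 4.00 and 2.2, and 1425960_s_at had 4.00, 2.70 and 2.80. The first of these is highest at day 2 and the next at day 0. All of the 5 probe sets but 1456342_at were highest at day 0, and those differ in how they order day 1 and day 2. With all signals at 143 or below and the brightest probe set near its starting value at day 2, no direction can be given for Pax6. Which part of the gene each probe set measures was not analysed here.

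Nes, the intermediate filament protein of neural progenitors, stayed level on its kept probe sets. Probe set 1418289_at had signals of 153, 139 and 145, and 1449022_at had 142, 150 and 138. The days lie close together on both, and their differences at day 2 were -0.05 and -0.03, inside the probe set spread of 0.34. The remaining 1453997_a_at was far below the constant, at 7.10, 9.30 and 8.80. With signals under 3 times the constant, a change smaller than the 0.43 of such dim probe sets would not be detectable.

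Sox11, a SoxC factor of progenitors and young neurons, stood out at day 1 on a single probe set of 6. Probe set 1436790_a_at had signals of 162, 363 and 148. Day 1 stands above the other days there, with differences of 0.94 (1.93-fold) to day 0 and of -1.04 (2.06-fold) from day 1 to day 2. The other kept probe sets had 122, 141 and 99.99 for 1429051_s_at, 117, 118 and 90.4 for 1453125_at, and 68.0, 59.6 and 81.7 for 1453002_at. None of them shows a peak of that size. Their differences lay between -0.10 and 0.15 at day 1, and between -0.24 and 0.15 at day 2. The 2 that were not kept had 60.8, 48.0 and 42.6 and 55.6, 60.7 and 19.7. The call for Sox11 in the second step therefore rests on 1 probe set, and the mean over the kept ones was -0.34. It was also lost with a constant of 112 (-0.87).

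Neurod1, a basic helix-loop-helix factor of neurons and of endocrine pancreas, was dim at the start and dimmer later. Probe set 1426412_at had signals of 111, 67.0 and 10.8, and 1426413_at had 123, 16.3 and 19.5. Both are highest at day 0 and below the constant at day 2, and they differ on day 1, where the former is above the constant and the latter below it. The former was kept, with a mean of 62.8, and gave -0.44 at day 1 and -1.32 (2.50-fold) at day 2. The latter just missed the constant with a mean of 53.0. The kept one passed through its days 0 and 1, so a lower day 2 is partly built into the choice. With a constant of 112 the difference at day 2 was -0.86, within 2-fold.

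**Figure D2:**
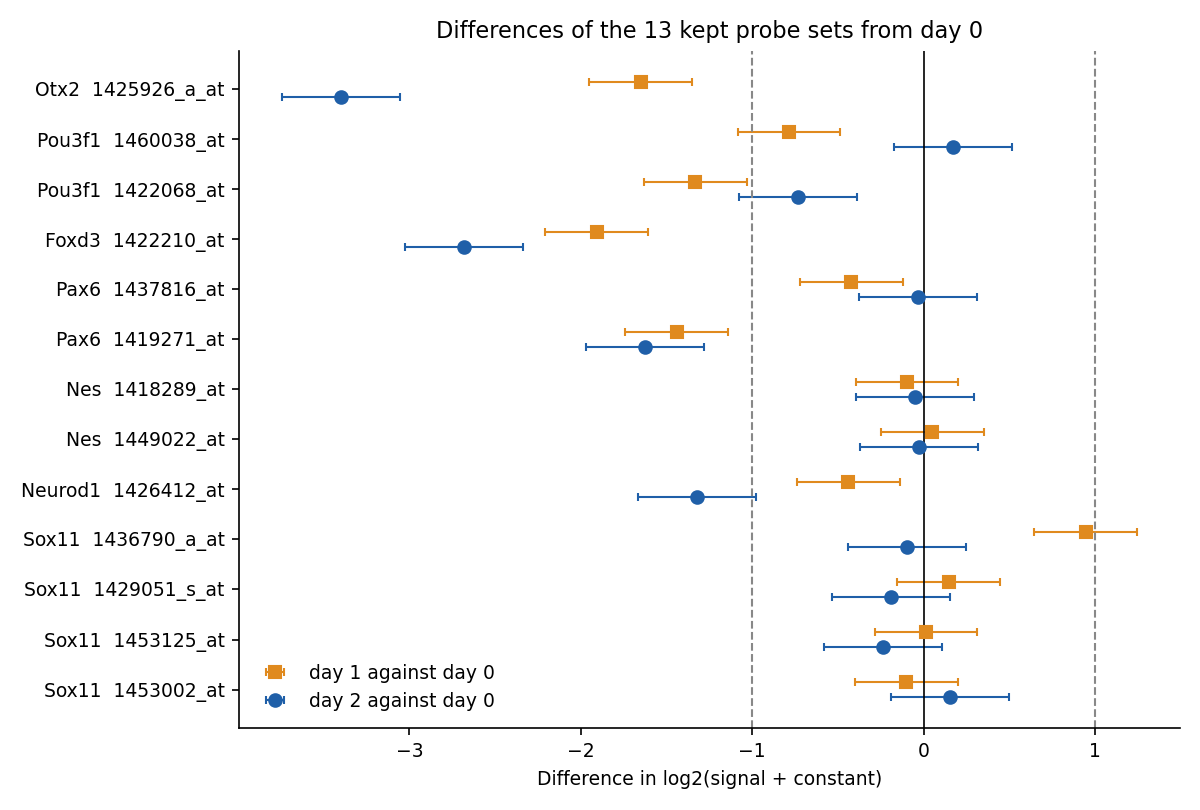
Difference from day 0 in log2(signal + constant) for the 13 kept probe sets, at day 1 (squares) and day 2 (circles); bars are the SD between probe sets of the same gene over all genes (0.30 at day 1, 0.34 at day 2), not a replicate error, and dashed lines mark 2-fold. Otx2 and Foxd3 lie beyond -1 on both days, the probe sets of Pax6 lie apart, and a single Sox11 probe set reaches 0.94 at day 1.

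Counted by probe set, 4 of the 13 kept ones were at least 2-fold lower at day 2 (5.09% of kept probe sets with 1 gene), those of Otx2, Foxd3 and Neurod1 and 1419271_at of Pax6. The last and that of Neurod1 reached the filter only through their earlier days, so this count supports no comparison with that share. At day 1 there were also 4 (2.35%), with 1422068_at of Pou3f1 in place of that of Neurod1. They still include 1419271_at of Pax6, kept only through its day 0 signal, so the day 1 count supports no such comparison either. From day 1 to day 2 there were 2 (2.41%), those of Otx2 and Sox11. None was at least 2-fold higher in any comparison (4.77% of kept probe sets over the full course, 2.10% in the step to day 1 and 1.90% in the step to day 2). Of the 13, 7 were highest at day 0, 4 at day 1 and 2 at day 2, with no such count made over all kept probe sets.

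**Figure D3:**
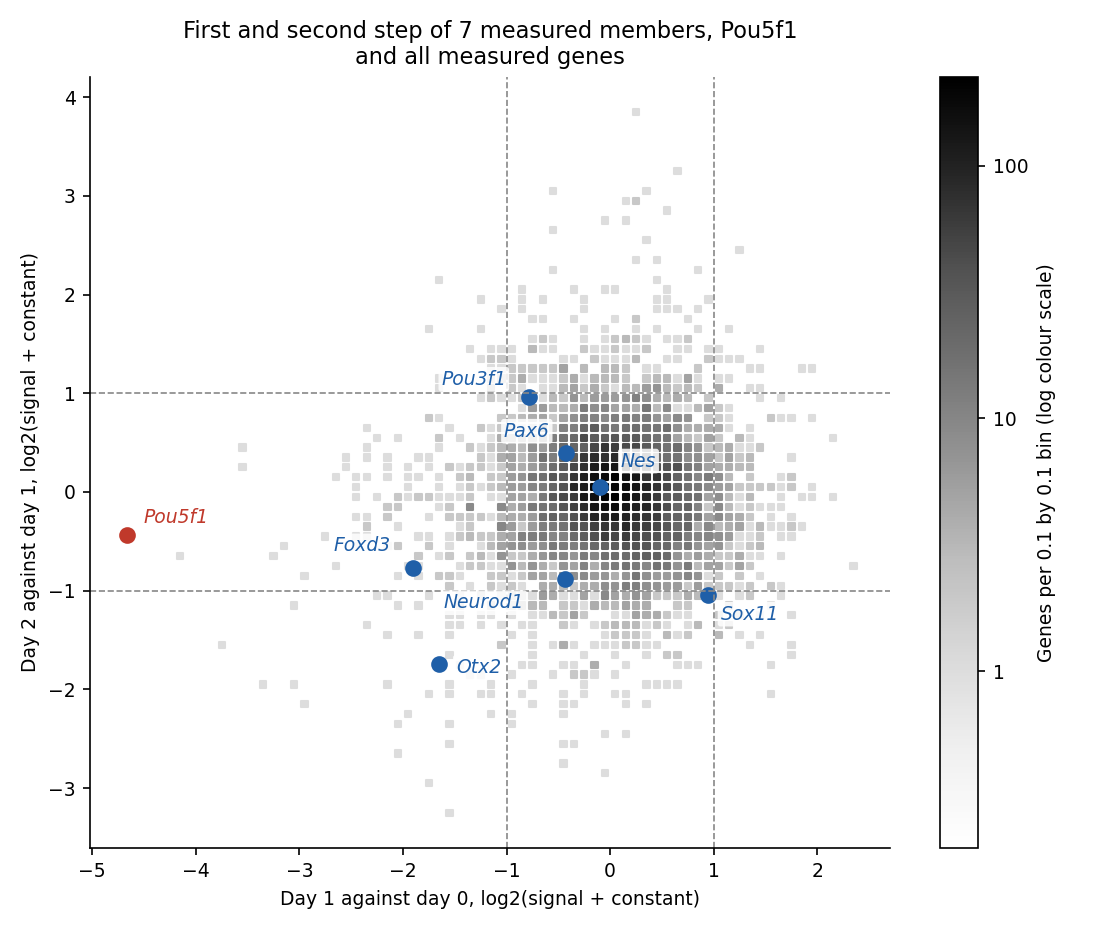
Day 2 against day 1 plotted over day 1 against day 0, in log2(signal + constant), for the 7 measured members (blue), Pou5f1 (red) and all 12717 measured genes (grey squares, shaded by the number of genes per bin); dashed lines mark 2-fold. Otx2 lies beyond 2-fold in both steps, Foxd3 in the step to day 1 alone, and Pou3f1 and Sox11 have steps of opposite sign; the axes share the day 1 array.

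The genes with the most similar course were sought by the distance between the steps in log2, over the differences between 3 arrays. For Otx2, 3 measured genes lay within 0.25. These were Nexmif (distance 0.15; signals 475, 121 and 2.00), Msc, a basic helix-loop-helix repressor (0.23; 918, 306 and 50.8), and Gli2, a transcription factor of Hedgehog signalling (0.23; 1687, 541 and 97.9). For Foxd3, 7 genes lay within 0.25, the closest being Phc1, a component of Polycomb repressive complex 1 (0.07; 6400, 1684 and 1016), Pdzd4 (0.09; 500.3, 99.2 and 31.6) and the efflux transporter gene Abcb1a (0.12; 940 and 229, then 117). For Neurod1 96 genes lay that close, led by Chchd7 (0.02), Nfe2 (0.02) and Tfap4 (0.03). The likeness holds on the scale with the constant added. Without it the day 2 signal of Neurod1 was 9.76% of that of day 0, while the signals of Chchd7 were 869, 629 and 320. With 3 arrays such likeness is a description of 2 steps.

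The other genes of the epiblast included many that were lower. Of 21 epiblast genes outside the 10, 16 were measured. Of these, 8 were at least 2-fold lower at day 2 (5.65% of all measured genes) and 1 was higher (5.25%). The median of the 16 was -0.93, and that of all measured genes was 0.05. Lef1 (117, 44.6 and 26.4) and Zic5 (416, 50.1 and 59.2) reached the filter only through day 0, so a lower day 2 was built in. The call of Lef1 was lost with a constant of 112 (-0.73). The others of the 8 were above the constant on every day. The count of 8 and the median of -0.93 include Lef1 and Zic5, and the list was chosen with earlier results of these data known. Count and median are therefore a description and not set against all measured genes. Nodal, the TGF-beta family signal of the epiblast, was at -3.32 (signals 2209, 406 and 171), and Etv5, a transcription factor downstream of FGF signalling, at -3.21. Utf1, a chromatin factor of pluripotent cells, was at -2.13, Dnmt3a, a DNA methyltransferase, at -1.56, and the kinase gene Pim2 at -1.30. Utf1 is also among the ES cell markers above, so it is counted in both lists. Dnmt3a was at -0.80 as the mean over its 5 kept probe sets. The higher gene was Cldn6, a claudin of epithelial junctions, at 1.28, named after its value was seen. Dnmt3b, a partner of Dnmt3a that is strongly expressed in epiblast, stayed at 0.17 with signals of 9221, 11726 and 10375. The growth factor genes Fgf8 and Fgf15 were below the constant on average, Fgf15 with 111, 25.3 and 4.10.

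Most neural progenitor genes were too dim to measure. Of 29, 27 had a probe set and 18 of these were below the constant on average, among them Pax3, Pax7, Olig2, Neurog2, Nkx2-2 and En1. Over all genes with a probe set, 12717 of 18193 were measured. Of the 18, Neurog1 (114 at day 1), Lhx5 (77.5 at day 1) and Nkx6-1 (66.4 at day 2) passed the constant on a single array. Of the 9 measured, 2 were at least 2-fold lower and 2 higher at day 2 (5.65% and 5.25% of all measured genes), with a median of -0.54. Sox2, which serves pluripotent and neural cells alike, was at -3.01 with signals of 12563, 8922 and 1510, and Gbx2, a homeobox gene of ES cells and the hindbrain, at -2.54 with 409, 26.5 and 23.8. Gbx2 reached the filter only through day 0, so a lower day 2 was built in. Its later signals are below the constant, and the difference was -1.94 with a constant of 112. The counts and the median of this list are therefore a description and not set against all measured genes. Irx3, an Iroquois homeobox gene, was at 2.67 with 163, 328 and 1338, and Prom1, a membrane protein gene of many stem and epithelial cells, at 1.19. Sox3, the other SoxB1 relative of Sox1, had signals of 130, 67.3 and 71.6. Hesx1 and Six3, genes of the anterior neural plate where Otx2 acts, were at -0.79 (300.4, 251 and 151) and 0.25 (104, 164 and 134).

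Of 14 neuron genes 11 were measured, with 1 at least 2-fold lower and 2 higher (5.65% and 5.25% of all measured genes) and a median of 0.17. The lower gene was Stmn2, a tubulin-binding protein gene, at -4.69 with signals of 9236, 2165 and 304. It was bright in these cells at day 0. The higher genes were those of the neurofilament chains, Nefm at 1.65 (23.9, 59.3 and 194, kept through day 2 alone) and Nefl at 1.57 (209, 235 and 729). A second kept probe set of Nefl gave 0.93. Because Nefm was kept through day 2 alone, the neuron counts and median are a description and not set against all measured genes. Tubb3, the neuronal tubulin, was at -0.76, Map2 at -0.40 on its brightest probe set and 0.44 on the other kept one, and Dcx lay below the constant.

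The closest relatives of the 10 genes were mostly dim. Of 20 paralogues 19 had a probe set and 7 were measured, against 12717 of 18193 over all genes with a probe set. Of the 7, 2 were at least 2-fold lower and 1 higher at day 2 (5.65% and 5.25% of all measured genes), with a median of -0.54. Zic5, which neighbours Zic2 in the genome, was at -2.04 with signals of 416, 50.1 and 59.2, all of it in the step to day 1 (-2.15). It was kept through day 0 alone. A second kept probe set gave -1.32. Zic1 and Zic4 were below the constant on average. Otx1 was below the constant on every day (2.50, 2.10 and 4.90), and Crx, the other OTX-class gene, was at 0.73 (61.0, 110 and 138). Pou3f2, Pou3f3 and Pou3f4 were below the constant on average, as were Foxd1, Foxd2 and Foxd4. Among the SoxC relatives of Sox11, Sox4 was at 0.80 (1241, 1878 and 2204) and Sox12 at -0.72 (742, 568 and 429). The 6 kept probe sets of Sox4 lay between -0.13 and 0.95, and the 2 of Sox12 at -1.04 and -0.72. Neurod2 was the gene at least 2-fold higher, at 1.09 with signals of 20.8, 91.6 and 107, and at 0.72 with a constant of 112. It reached the filter only through days 1 and 2, so a higher day 2 was partly built in. With Zic5 kept through day 0 alone, the paralogue counts and median are a description and not set against all measured genes. The lists share Sox2, Sox3, Sox4 and Zic5, and Sox2 and Utf1 are also ES cell markers, so their counts are not independent.

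**Figure D4:**
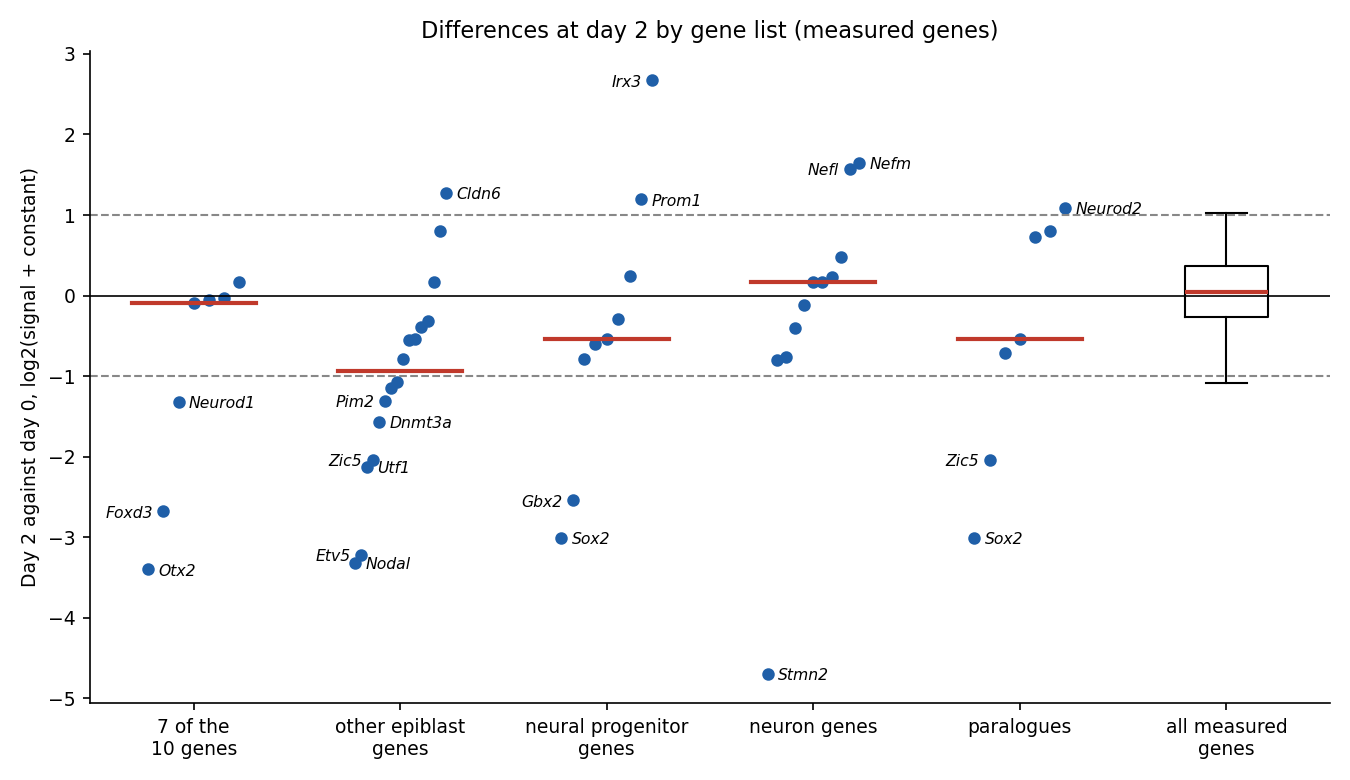
Day 2 against day 0 in log2(signal + constant) for the measured genes of each list (1 point per gene, red bar at the median) and for all 12717 measured genes (box from the 25th to the 75th percentile, whiskers at the 5th and 95th); dashed lines mark 2-fold. The median of the other epiblast genes is -0.93, that of the neuron genes 0.17 and that of all measured genes 0.05. The lists were chosen with earlier results of these data known, and some genes reached the filter through day 0 or day 2 alone. The medians are therefore a description.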

How the data were processed

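The data are 3 Affymetrix arrays, 1 per day. Array intensities, 1 per probe set, were deposited by the authors; MAS5 was used, per the submitters' processing notes. The deposited intensities are linear and share a 2% trimmed mean of 498, and 64 control probe sets with values at day 2 alone were left out. The day 2 column is written in another number format, with no reason stated. Genes came from the platform annotation; 34945 probe sets name 1 gene, 932 several and 9160 none. With Python 3.11.15 and pandas 2.3.3, arrays were scaled to the common trimmed mean, 55.9 was added, log2 was taken, and 26925 probe sets (59.8%) were kept. The members and lists were chosen with earlier results of these data known. Named were all members, at most 6 genes a list past 2-fold by size of difference, the 3 genes nearest in course to each member past 2-fold at day 2, defining markers, and, after their values were seen, other list genes given beside them. The size rule was tested on simulated data, with changes well past 2-fold in bright genes and less noise than the probe set spread here. Changes near 2-fold or in dim genes were not simulated. The alternatives were a constant of 112, no filter, a filter at the 60th percentile, quantile normalisation, equal ribosomal protein medians, no _x_at, _s_at or _a_at probe sets, and means over probe sets. The number of arrays limits the precision.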

Additional observations from a re-analysis of the deposited data

How the results depend on the processing

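Of the alternatives run, the number of members at least 2-fold lower at day 2 was 2 or 3 in each, and 0 members were higher in any comparison. The difference of Pou3f1 at day 2, within 2-fold, turned from 0.17 to -0.28 as a mean over its probe sets. Otx2 could not be measured without _x_at, _s_at and _a_at probe sets, its only one being of that kind, and the number lower was then 1 at day 1 and 0 from day 1 to day 2. The call of Sox11 from day 1 to day 2 was lost there as well, at -0.25. From day 1 to day 2 the number lower was also 1 with a constant of 112 and with means over probe sets. The median of the measured members moved under several alternatives. At day 2 it was -0.42 without a filter (10 genes), -1.39 under a 60th percentile filter (4 genes) and -0.83 with means over probe sets. At day 1 it was -0.32 with a constant of 112, -1.22 under a 60th percentile filter and -0.93 with means over probe sets. From day 1 to day 2 it was -0.77, and became -0.52 with a constant of 112, -0.22 without a filter, -0.91 under a 60th percentile filter, -0.10 without _x_at, _s_at and _a_at probe sets and -0.34 with means over probe sets. Among the lists at day 2, the higher neural progenitor genes were 1 without _x_at, _s_at and _a_at probe sets, the higher neuron genes 1 under a 60th percentile filter, the lower neuron genes 2 with means over probe sets, and the higher paralogues 0 with a constant of 112 and under a 60th percentile filter. No called difference changed sign under any alternative run. No paired analysis was possible because each day has a single array.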
